A study of Mus musculus with 11 samples.

Results

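*Nid1*, *Lama4*, and *Tinagl1* encode proteins of the basement membrane, and their transcripts were followed in HaCa4 cells, a mouse skin squamous carcinoma line. They were chosen by gene symbol and make up 3 of the 290 genes whose values were used for this cell line. RNA sequencing had been performed on HaCa4 control (n = 2), grown alone as a single culture, and on HaCa4-sorted (n = 3), recovered by FACS from 24 h co-cultures with imLEC. The imLEC cells are conditionally immortal mouse lymphatic endothelial cells (LECs) that carry a temperature-sensitive large T antigen, and the study used clones of them interchangeably. HaCa4 itself is a tumor-derived line with an oncogenic H-Ras allele, which both groups carry, and neither group received another treatment according to the labels. In the sort, cancer cells were recognized by the dye CFSE and LECs by an antibody to CD31, the product of *Pecam1*, and dead cells and doublets were excluded. Whether the control cells also passed through dye and sorter is not given in the sources used here.

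The basement membrane is the thin sheet of matrix under epithelia and around vessels. It is built from laminin heterotrimers and a collagen IV network, which nidogen and perlecan hold together, and cells grip it through integrins. *Nid1* encodes nidogen-1, the linker between laminin and collagen IV. *Lama4* encodes the laminin α4 chain, best known from the basement membranes of endothelium, muscle, and nerve. *Tinagl1* encodes a secreted matrix protein related to the tubulointerstitial nephritis antigen. In skin, laminin α3 and α5 chains are the usual epidermal forms.

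*Nid1* (Entrez 18073) lies on the plus strand of chromosome 13 from 13437602 to 13512275 of GRCm38.p6, and the longest coding transcript of GENCODE M21 has 20 exons. GENCODE M21 places 1 antisense gene, *Gm48682*, within its span, and reads of this pair cannot be told apart if they were counted without strand, which is not given in the sources used here. *Lama4* (Entrez 16775) is on the plus strand of chromosome 10 from 38965515 to 39110188, with 38 exons, and *Tinagl1* (Entrez 94242) on the minus strand of chromosome 4 from 130165600 to 130175122, with 12 exons. No other annotated gene overlaps the span of *Lama4* or *Tinagl1*.

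The RefSeq promoter windows of GRCm38.p6 cover the *Nid1* start and a pair of *Tinagl1* starts, and they are shown for these 2 genes. No window was found for *Lama4*, which is named only. The bases before each start are given on the coding strand, without those that GENCODE M21 places in an exon of the gene, and capitals mark matches to the AP-1 site and the GC box on either strand. Other motifs are left in lower case. The AP-1 site was searched as TGANTCA. The letters of the GC box were GGGCGG, those of the TATA box were TATAAA, and no marked matches overlap.

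Nid1, chr13:13437352-13437550: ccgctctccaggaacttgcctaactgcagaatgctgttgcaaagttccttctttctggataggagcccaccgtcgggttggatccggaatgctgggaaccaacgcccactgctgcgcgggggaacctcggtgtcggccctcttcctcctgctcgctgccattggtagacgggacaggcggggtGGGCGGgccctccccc

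Tinagl1, outer start, chr4:130175123-130175372: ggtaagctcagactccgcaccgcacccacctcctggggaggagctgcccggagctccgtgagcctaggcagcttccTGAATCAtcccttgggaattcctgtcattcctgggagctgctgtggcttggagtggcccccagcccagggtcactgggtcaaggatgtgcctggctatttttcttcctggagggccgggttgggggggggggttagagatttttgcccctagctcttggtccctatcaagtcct

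Tinagl1, inner start, chr4:130174821-130174901: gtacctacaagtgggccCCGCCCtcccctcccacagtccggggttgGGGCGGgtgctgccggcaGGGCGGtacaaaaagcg

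Within the full 250 bases before the start, the *Nid1* window held 1 GC box and 7 matches to the ETS core GGAA. The outer *Tinagl1* window held 1 AP-1 match and 5 ETS cores, without a GC box. The inner window held 4 GC boxes, 3 ETS cores, and 1 E-box, CANNTG. None of these windows held a TATA box. Of 32851 promoter windows of that length, 6.75% held the AP-1 letters, 32.7% the GC box, 93.4% the ETS core, 66.2% the E-box, and 12.4% the TATA box. The AP-1 match of the outer *Tinagl1* window is thus the rarest of these, and it was not shared by *Nid1*. No binding was measured in this study, so the matches describe the letters only.

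The values are TPM (an abundance per transcript length, scaled to the same total in each library), which the authors deposited with 2 decimals. The 290 genes added up to between 1.84% and 2.39% of the total per library, and the read depth behind each value is unknown. Replicate pairs had Pearson correlations of log2(TPM + 1) across these genes between 0.932 and 0.995, and the control pair was the closest. No statement on separate cultures was found, so the p-values measure only the spread between these libraries, which may be technical. The 3 genes are absent from the 191 genes used here for LECs, and their level in LECs was not analysed here.

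All 3 genes had higher TPM in every HaCa4-sorted library than in both HaCa4 control libraries, but at very different levels. The same held for 63.1% of the 290 genes, while 33.4% were lower in every sorted library, so the separation by itself does not set these genes apart. *Tinagl1* was an abundant transcript before and after co-culture, *Nid1* was near 0 in the control and at a moderate level in HaCa4-sorted, and *Lama4* stayed low throughout. By mean TPM, *Tinagl1* ranked 51 of 290 in the control and 33 of 290 in HaCa4-sorted, *Nid1* 213 and 158, and *Lama4* 240 and 263.

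*Tinagl1* was at 60.37 and 57.26 TPM in HaCa4 control replicates 1 and 2. HaCa4-sorted replicates 1 to 3 held 90.23, 112.92, and 105.8 TPM. The sorted libraries lay close together, with the highest 1.25 times the lowest. The ratio of the group means was 1.75. To compare the groups, limma with a mean-variance trend was fitted to log2(TPM + 1) of all 290 genes, and a gene was called where the log2 fold change reached 0.5 in either direction with a Benjamini-Hochberg adjusted p up to 0.05. The log2 fold change of *Tinagl1* was 0.79 (SE 0.13, 95% interval 0.47 to 1.11, limma-adjusted p = 0.0308), the 4th smallest p among the listed genes. It was higher in 3 of 3 sorted libraries, and it was the only one of the 3 genes to pass. The listed genes may have been selected for this same contrast, so its interval, p, and rank are no independent test. For comparison, 30.0% of the listed genes were called, 15.9% higher and 14.1% lower. In numbers these were 46 higher and 41 lower genes, which became 50 higher and 95 lower with libraries scaled to the same median.

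The *Tinagl1* call depended on scale and on single libraries. Scaling the libraries to a common median of the listed genes moved all log2 fold changes by a median of -0.72. The median of the listed genes was 4.8 and 4.1 TPM in the controls, against 6.3, 8.8, and 9.4 TPM in HaCa4-sorted. These genes are a selection, so this scaling cannot separate a difference in scale from changes of the listed genes themselves. With it, the log2 fold change of *Tinagl1* turned to -0.07. Its groups overlapped at 84.0 and 94.2 scaled TPM in the controls against 95.2, 85.5, and 75.3 in HaCa4-sorted. Without HaCa4 control replicate 1 or 2, which left a single control library, its log2 fold change was 0.83 and 0.75. Only the size of *Tinagl1* is given for those fits. Without HaCa4-sorted replicate 3 its log2 fold change was 0.77, so the size remained while the call was lost (limma-adjusted p = 0.0769). In that fit 0 of the 290 genes were called.

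*Nid1* stood at 0.11 and 0.04 TPM in the single cultures, against 1, 13.87, and 5.55 TPM in sorted replicates 1 to 3. The lowest sorted library was thus above both controls, while the highest was 13.9 times the lowest. The SD of the sorted group, 6.53 TPM, was nearly as large as its mean of 6.81 TPM (n = 3). The log2 fold change, which the added 1 TPM makes smaller for low genes, was 2.43 (SE 0.84, 95% interval 0.39 to 4.47, limma-adjusted p = 0.0569), just short of the threshold. Without HaCa4-sorted replicate 1 it was 3.20 and passed (limma-adjusted p = 0.00888). After scaling to a common median it remained at 2.14 and passed (limma-adjusted p = 0.00178). A pseudocount of 0.1 in place of 1 raised it to 4.69 and brought it past the threshold (limma-adjusted p = 0.0207), while one of 5 lowered it to 1.06 (limma-adjusted p = 0.117). It did not pass when either control or sorted replicate 2 or 3 was left out, with limma-adjusted p between 0.0727 and 0.231.

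*Lama4* was at 0.02 TPM in HaCa4 control replicate 1 and listed at 0 in replicate 2. The co-cultured replicates 1 to 3 held 0.13, 1.59, and 0.33 TPM. Only replicate 2 was above 1 TPM, and the highest sorted value was 12.2 times the lowest. The log2 fold change was 0.64 (SE 0.43, 95% interval -0.41 to 1.69, limma-adjusted p = 0.198), an interval that holds both no change and a change larger than that of *Tinagl1*. Without HaCa4-sorted replicate 2 it was 0.28 (limma-adjusted p = 0.366), and without replicate 1 it was 0.88 (limma-adjusted p = 0.0523). Its size rested on the pseudocount, at 2.33 with 0.1 (limma-adjusted p = 0.0835) and 0.17 with 5 (limma-adjusted p = 0.256). No fit that was tried brought *Lama4* past the threshold.

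An exact two-sided permutation test of the 2 control against the 3 sorted libraries gave p = 0.2 for each gene, the smallest value that this design allows.

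**Figure D1:**
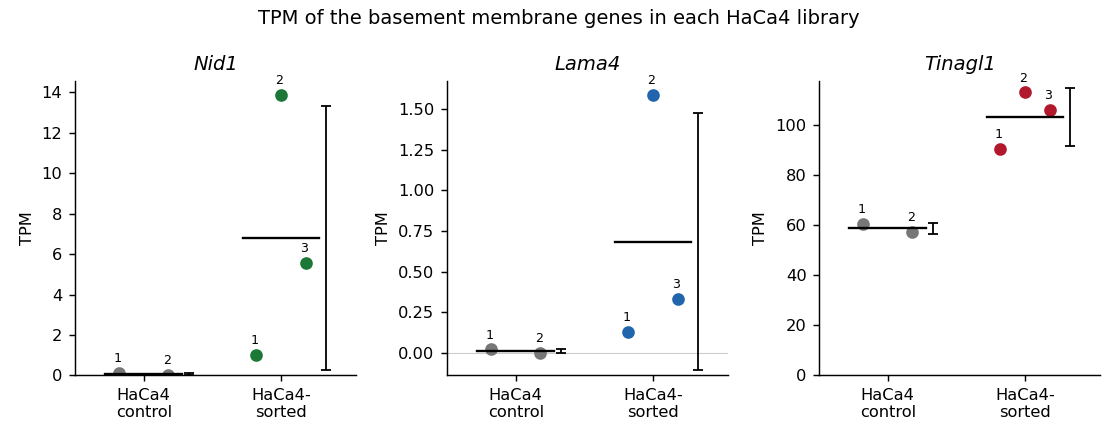
TPM (linear axis) of *Nid1*, *Lama4*, and *Tinagl1* in HaCa4 control (gray, n = 2) and HaCa4-sorted (colored, n = 3), with points labeled by replicate number, the mean as a horizontal line, and the SD as a bar beside it. Each sorted library lay above both controls, replicate 2 was the highest and replicate 1 the lowest sorted library in each panel, and the sorted values spanned 13.9 times for *Nid1*, 12.2 times for *Lama4*, and 1.25 times for *Tinagl1*, whose groups overlapped after scaling to the same median.

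The settings can be compared gene by gene in the plot of log2 fold changes with their intervals. The estimates of *Nid1* and *Lama4* were above 0 in each fit, with wide intervals, whereas the interval of *Tinagl1* was narrow and above 0 in each fit except that with scaled libraries.

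**Figure D2:**
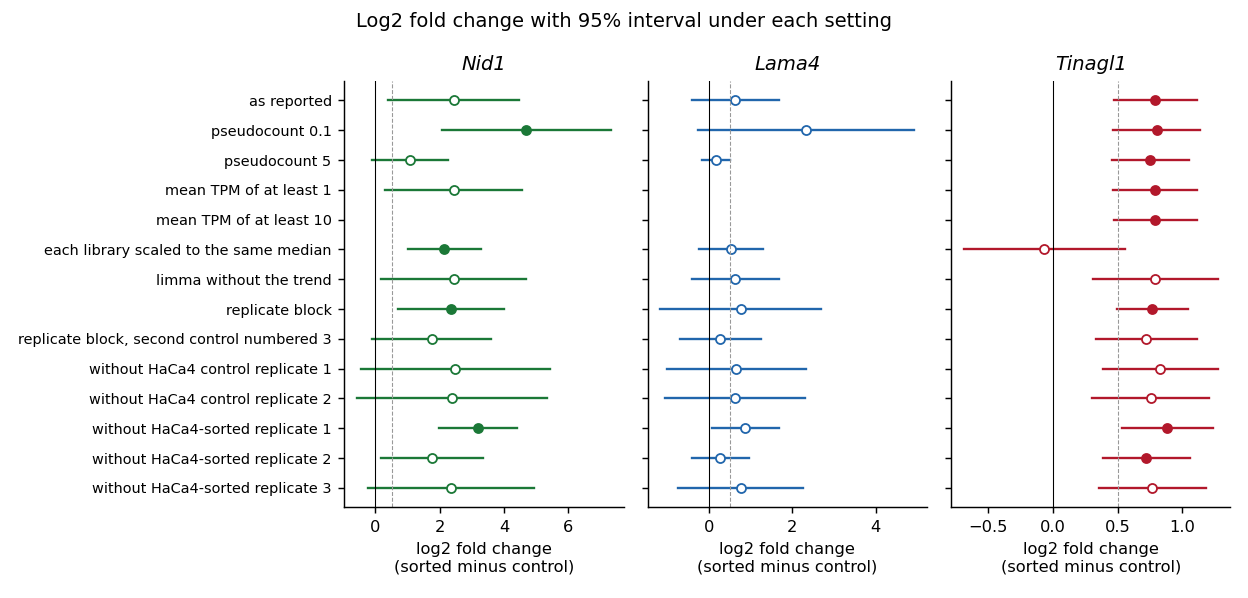
Log2 fold change (HaCa4-sorted minus control, x axis, points) with its 95% interval (lines) for each gene as reported and under 13 other fits, where a filled point passed both thresholds and the dashed line marks 0.5. *Tinagl1* stayed between 0.72 and 0.88 in all fits but that with libraries scaled to the same median, where it was -0.07, and *Lama4* passed in none of them.

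In each of the 3 genes, sorted replicate 2 was the highest, followed by replicate 3 and then replicate 1. This order was found in 121 of the 290 genes (41.7%), so it was common among them. Of these 121 genes, 103 had a higher mean in HaCa4-sorted, as the 3 genes did. The same order was also that of endothelial transcripts. Of 50 markers of blood and lymphatic endothelium, 24 were among the listed genes, and 23 of the 24 had it. In all 24 the mean was higher after co-culture, in 21 of them without overlap, beside 63.1% of all listed genes. By limma 2 of the 24, *Emcn* and *Plvap*, were called higher, beside 15.9% of all listed genes. The median log2 fold change of the 24 was 1.46 against 0.74 over all listed genes. With libraries scaled to the same median, 13 of the 24 were called higher, *Pecam1* and *Cdh5* among them, beside 50 of all 290 genes. The medians were then 1.20 and 0.25. The summed level of the 24 markers was 39.0 to 43.7 TPM without LECs, compared with 71.2, 356, and 183 TPM in sorted replicates 1 to 3.

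Most of the control level came from *Nr2f2*, a nuclear receptor also made outside endothelium, at 38.9 and 35.56 TPM. Without it, a choice made after the values were seen, the other 23 markers summed to 4.77 and 3.46 TPM without LECs, compared with 20.9, 304, and 134 TPM after co-culture. Among them *Cdh5* (VE-cadherin), *Flt4*, *Emcn*, *Robo4*, *Icam2*, *Erg*, *Myct1*, and *Adgrl4* had no TPM in either control and some in every sorted library. *Cdh5* reached 1.11, 29.73, and 13.78 TPM and *Pecam1*, which encodes the CD31 used to recognize LECs in the sort, 1.29, 24.25, and 9.38 TPM. Both cell lines are of mouse origin, so a bulk library does not show which cells a transcript came from, nor can fewer cells of a type be told apart from less RNA per cell.

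*Nid1* varied with *Pecam1* in the sorted libraries. Its TPM relative to that of *Pecam1* was 0.775, 0.572, and 0.592 in sorted replicates 1 to 3, a range of 1.36 times, although *Nid1* alone varied 13.9 times. Relative to all 24 markers it was less even, at 1.40%, 3.89%, and 3.04% of their sum, a range of 2.77 times. Relative to the 23 markers without *Nr2f2*, trimmed after the values were seen, it was 4.79%, 4.56%, and 4.15%. In the controls the ratios rest on *Nid1* values near 0, at 0.786 and 1 to *Pecam1*, at 0.252% and 0.103% of the 24 markers, and at 2.31% and 1.16% of the 23.

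*Lama4* was at 0.101, 0.0656, and 0.0352 relative to *Pecam1* in sorted replicates 1 to 3, a range of 2.86 times. It was at 0.183%, 0.446%, and 0.181% of all 24 markers and at 0.623%, 0.522%, and 0.247% of the 23, so the order of the replicates depended on *Nr2f2*. The level of *Tinagl1* per TPM of *Nid1* was 90.2, 8.14, and 19.1 in the sorted replicates, and it was 127%, 31.7%, and 57.9% of the sum of all 24 markers. The part of the endothelial transcripts in the differences of *Nid1*, *Lama4*, and *Tinagl1* was not tested.

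**Figure D3:**
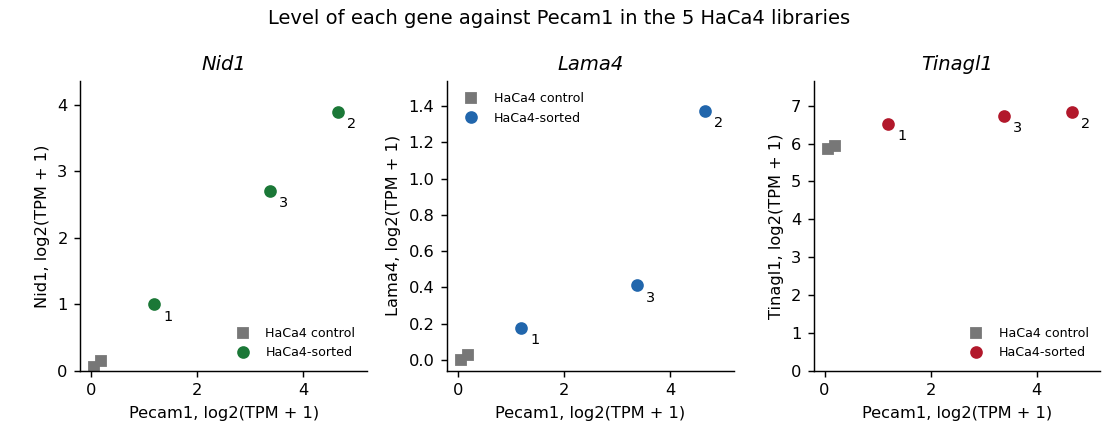
Level of *Nid1*, *Lama4*, and *Tinagl1* (y axis) against *Pecam1* (x axis), both as log2(TPM + 1), in the HaCa4 control (gray squares, n = 2) and HaCa4-sorted libraries (colored circles with replicate numbers, n = 3). *Nid1* lay near a line with *Pecam1*, at 0.572 to 0.775 times its TPM in the sorted libraries, whereas *Tinagl1* was already at 57.26 to 60.37 TPM in the controls, where *Pecam1* was at 0.04 to 0.14 TPM.

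The genes whose pattern was most like each of the 3 were found by the Pearson correlation of log2(TPM + 1) over the 5 HaCa4 libraries, among genes with a mean of at least 1 TPM. All points share these libraries, so the values only describe the pattern. For *Nid1* they were *Icam1*, *Gm4070*, *Pecam1*, *Igfbp4*, and *Myct1*, each with r of at least 0.998. *Icam1*, an adhesion receptor for leukocytes, had 0.14 and 0.10 TPM without LECs, compared with 0.82, 7.27, and 3.46 TPM in sorted replicates 1 to 3. For *Lama4* they were *Sox18*, *Acvrl1*, *Tfpi2*, *Cd93*, and *Esam*, with r between 0.958 and 0.978. *Sox18*, a transcription factor of lymphatic development, reached 0.15, 4.36, and 1.23 TPM in the sorted replicates. Of these 10 genes, *Pecam1*, *Myct1*, *Sox18*, *Cd93*, and *Esam* were on the endothelial list, beside 24 of all 290 listed genes.

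For *Tinagl1* the closest were *Cobl*, *Cavin2*, *Timp3*, *Ppfibp2*, and *Dhrs9*, with r between 0.987 and 0.997. None of these 5 was on the endothelial list, which is near the share of 24 in 290 over all listed genes. *Cobl*, an actin nucleator, had 1.21 and 0.98 TPM without LECs, compared with 3.05, 4.09, and 3.85 TPM after sorting. *Cavin2*, a caveolar coat protein, had 5.52 and 5 TPM, compared with 11.38, 19.88, and 17.1 TPM. The r between *Nid1* and *Tinagl1* was 0.921, that between *Nid1* and *Lama4* 0.923, and that between *Lama4* and *Tinagl1* 0.766.

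Of 47 genes on a list of basement membrane components, 4 were among the listed genes. The fourth was *Hmcn1*, hemicentin-1, which had no TPM in either control and 0.06, 0.47, and 0.16 TPM after co-culture (limma-adjusted p = 0.361). Only *Tinagl1* of these 4 was called, and the median log2 fold change of the 4 was 0.72, close to the 0.74 of all listed genes. With libraries scaled to the same median, *Nid1* was the one called. Other laminin chains, collagen IV, perlecan, and nidogen-2 were not analysed here, so the partners of *Nid1* and *Lama4* in the sheet cannot be followed.

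Of 27 receptors for basement membrane and matrix, *Itga2* and *Itga4* were listed. *Itga2*, a collagen and laminin receptor subunit, had 42.92 and 37.1 TPM without LECs, compared with 26.88, 20.53, and 25.69 TPM after co-culture, and fell by 0.70 in log2 terms (limma-adjusted p = 0.0386). *Itga4* was low, with the same order of the sorted libraries as *Lama4*, at 0.15, 1.35, and 0.47 TPM (limma-adjusted p = 0.157).

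Of 32 matrix proteases and inhibitors, 7 were listed, and 1 of them was called, in the lower direction, where 14.1% of all listed genes were called lower. *Timp3*, an inhibitor of metalloproteases bound to matrix, had 0.31 and 0.33 TPM without LECs, compared with 1.44, 2.14, and 2.11 TPM after co-culture (limma-adjusted p = 0.0542). *Mmp13*, a collagenase, fell by 1.70 in log2 terms (SE 0.51, limma-adjusted p = 0.0472). *Mmp3*, *Mmp9*, *Mmp10*, *Mmp1b*, and the cathepsin *Ctsl* had lower TPM in every sorted library without passing, with log2 fold changes between -0.36 and -1.45. Of all listed genes, 33.4% were lower in every sorted library. With libraries scaled to the same median, 5 of the 7 were called lower, *Mmp13* with *Mmp3*, *Mmp10*, *Mmp1b*, and *Ctsl*. That scaling called 95 of all 290 genes lower.

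Of 60 other matrix genes, 8 were listed, of which 2 were called higher and 1 lower, beside 15.9% and 14.1% of all listed genes. *Wisp2*, a matricellular protein of the CCN family, went from 7.36 and 4.26 TPM up to 16.68, 12.62, and 16.78 TPM (log2 fold change 1.29, limma-adjusted p = 0.0366), and *Lgals3bp*, a secreted ligand of galectins, was also called higher. After scaling to the same median neither passed, at log2 fold changes of 0.52 and 0.20. *Spp1*, osteopontin, was the 1 called lower, with a log2 fold change of -0.91, or -1.78 after scaling. *Bgn*, biglycan, had 0.10 and 0.15 TPM without LECs, compared with 0.33, 3.80, and 4.03 TPM after co-culture (limma-adjusted p = 0.0925). *Srpx2* had no TPM in either control and 0.20, 3.04, and 1.44 TPM after co-culture, and *Loxl2*, a lysyl oxidase that crosslinks collagen, reached 0.52, 2.10, and 0.96 TPM. *Wisp1* and *Cyr61* were not called, and their log2 fold changes of 0.73 and 0.74 turned to -0.07 and -0.13 after scaling. *Bgn* and *Srpx2* were called higher with the scaled libraries, at log2 fold changes of 1.19 and 1.01. There were thus 6 calls among these 21 matrix genes, where 30.0% of all listed genes were called. All 6 were lost without HaCa4-sorted replicate 3, a fit in which 0 of the 290 genes were called.

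**Figure D4:**
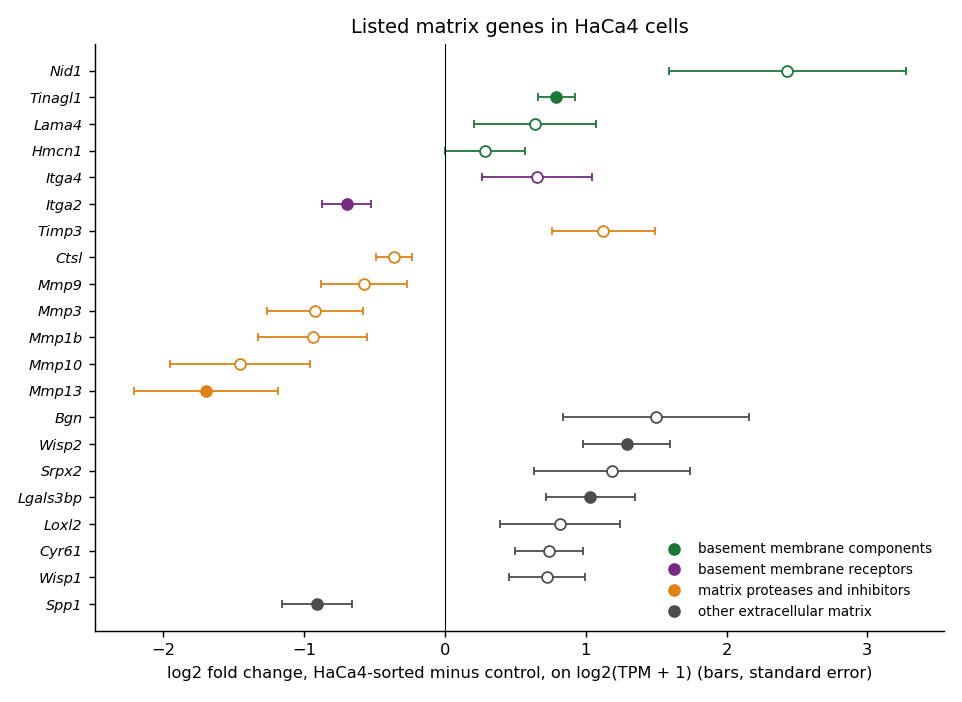
Log2 fold change of 21 listed matrix genes (x axis, HaCa4-sorted minus control on log2(TPM + 1), bars showing the standard error), colored by list, where filled points passed both thresholds. *Nid1* had the highest value, 2.43, with a standard error of 0.84, and *Tinagl1*, at 0.79 with a standard error of 0.13, was the 1 filled point among the basement membrane components, although it turned to -0.07 after scaling to the same median.

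As a check of the cell line, 4 of 40 keratinocyte markers were listed. *Krt8* had 283.8 and 380.41 TPM without LECs, compared with 220.13, 205.34, and 238.24 TPM after co-culture, and it was called lower. *Krt6b* had 14.3 and 9.09 TPM against 3.31, 1.4, and 2.76 TPM and was also called lower. *Krt19* had 10.03 and 10.28 TPM against 16.59, 18.49, and 29.27 TPM and was called higher, but not with libraries scaled to the same median. *Dsg3* was not called in the unscaled fit and was called lower with the scaled libraries. The summed level of the 4, most of it *Krt8*, was 321 and 410 TPM without LECs, compared with 247, 233, and 276 TPM after co-culture. These 4 epithelial markers were thus present in both groups. Of the 3 basement membrane genes, *Tinagl1* alone was well above 0 in HaCa4 control. Which cells the transcripts in HaCa4-sorted came from was not tested.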

How the data were processed

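RNA of HaCa4 control (n = 2) and HaCa4-sorted (n = 3) was sequenced on a BGISEQ platform. Per the labels and methods, the authors used SOAPnuke for read filtering, HISAT2 2.0.4 for alignment to GRCm38.p6, and DESeq2 for differential expression. The authors deposited TPM values for a selected set of genes, with no pooling; the tool that gave them is not given in the sources used here. TPM keeps no depth, so no counting interval is given. The second HaCa4 control is replicate 2 by its label, although its deposited column carries the number 3.

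All 290 genes were fitted with limma 3.58.1 in R 4.3.3 on log2(TPM + 1), without a filter or block; tests were two-sided. The step was tested on simulated data. The genes had been selected beforehand, by a rule the paper does not give. The groups were fully apart in 63.1% of them upward and in 33.4% downward. The paper counts 191 deregulated genes in LECs, as many as were used here for LECs. It also names the 3 genes as increased in HaCa4. The selection may thus rest on this same contrast in these libraries. Unadjusted and adjusted p-values, intervals, and calls therefore describe this selection and are no independent test. Members and lists were chosen with earlier results of these data known. A listed matrix gene is not reported here and was left out of its list. Named are the 3 genes, the other listed matrix genes, *Pecam1* and the 5 highest endothelial markers, the listed keratinocyte markers, and the 5 genes most like each member by Pearson r. Named outside this rule, after their values were seen, were endothelial markers listed at 0 in both controls. Coordinates and promoters are from RefSeq, exons from GENCODE M21. Promoters were found for *Nid1* and *Tinagl1*. Alternatives were pseudocounts, filters, scaling, no trend, blocks, a log2 threshold of 1, medians, and leaving out each library. Permutations were run in scipy 1.17.1 under Python 3.11.15, and plots drawn with matplotlib 3.10.9.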

Additional observations from a re-analysis of the deposited data

How the results depend on the processing

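The 87 listed genes past the thresholds became 177 with a pseudocount of 0.1, 33 with a pseudocount of 5, 145 with scaled libraries, 39 at a log2 threshold of 1, and 0 without the trend (161 at an unadjusted p under 0.05). Leaving out 1 library gave between 0 and 194 genes, and between 0 and 2 basement membrane components in place of 1. The count was 0 without HaCa4 control replicate 2 (70 at an unadjusted p under 0.05) and without HaCa4-sorted replicate 3 (126), and 194 without HaCa4-sorted replicate 1. The cause was not tested.

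*Tinagl1* reversed to -0.066 with scaled libraries. It kept its size and lost its call without the trend (0.79, limma-adjusted p = 0.0735) and at a log2 threshold of 1 (0.79). Left-out libraries gave 0.72 to 0.88. *Nid1* passed with a pseudocount of 0.1 (4.69) and with scaled libraries (2.14), and left-out libraries gave 1.75 to 3.20. *Lama4* had 0.28 to 0.88 with left-out libraries, and its direction held in all 13 alternatives, with no call in those that have a test. A mean of at least 1 TPM removed *Lama4*, and one of at least 10 TPM also *Nid1*. The summed endothelial markers averaged 203 TPM in HaCa4-sorted and 127 to 269 TPM without 1 library.

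With a replicate block, 115 genes were called, and *Nid1* passed at 2.34 (limma-adjusted p = 0.0193). HaCa4-sorted replicate 3 has no partner in that fit and does not enter the estimate. Leaving this library out without a block gave the same 2.34 for *Nid1* without a call (limma-adjusted p = 0.131). The block leaves little spread per gene to measure, so its p-values rest mostly on the spread that limma shares across the listed genes. With the second control numbered 3, 22 genes were called and *Tinagl1* lost its call (0.72, limma-adjusted p = 0.0675), and HaCa4-sorted replicate 2 does not enter. Deviations of same-numbered libraries had r = 0.231 and 0.284 across genes. The libraries share only a number by their labels.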
